A study of Mus musculus with 6 samples.

Results

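Tags of 6 microRNAs (miRNAs) that mark liver, gut and brain were followed in small RNA libraries of mouse testicular peritubular myoid cells. Members were all rows of the deposited count table named for the stems miR-122, miR-192, miR-194, miR-215, miR-9 and miR-124, either arm. This gave 13 of the 1573 rows for known mouse miRNAs. The libraries came from primary peritubular myoid cells of C57BL/6J mice, the smooth-muscle-like cells in the wall of the seminiferous tubule. One group was exposed to 50 nM endothelin-1 (ET1), a vasoconstrictor peptide, in DMEM/F12 for 5 min (n = 3 libraries), and the other was left untreated (n = 3 libraries). Cells of both groups had been grown with 10% fetal bovine serum, and the labels give no purification marker. Separate cultures or animals behind the 3 libraries of a group are not stated, so a p-value covers the library-to-library spread alone, possibly technical.

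A miRNA is cut from a hairpin precursor, and either strand of the cut duplex, the 5p or the 3p arm, can enter an Argonaute protein and repress mRNAs that match its seed (bases 2 to 8). miR-122 makes up most of the miRNA of hepatocytes, where it supports lipid metabolism. miR-192, miR-194 and miR-215 are made in intestinal epithelium, liver and kidney, with transcription driven by hepatocyte nuclear factors. miR-9 and miR-124 are made by neural progenitors and neurons, and miR-124 represses non-neuronal genes. Mature sequences of these families are strongly conserved among mammals, so that a bovine tag can carry the name of the mouse miRNA. The tag sequences themselves were not analysed here, and the source of the tags, whether the cells, the serum or other libraries of a sequencing run, was not tested.

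RefSeq sequences on GRCm38.p6 were used for 9 of the 13 members, and the arms of miR-122 and miR-124 are named only. The mature sequences below are from the gut family, among them arms that tell its loci apart, and the pair of arms of miR-9. The seed is in capitals.
miR-192-5p: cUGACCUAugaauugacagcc
miR-215-5p: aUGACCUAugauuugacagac
miR-194-5p: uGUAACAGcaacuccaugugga
miR-194-2-3p: cCAGUGGGgcugcuguuaucug
miR-194-1-3p: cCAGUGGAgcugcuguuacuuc
miR-9-5p: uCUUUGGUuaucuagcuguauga
miR-9-3p: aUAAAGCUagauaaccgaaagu
miR-192-5p and miR-215-5p share their seed and 18 of 21 bases. They differ by C1A, A12U and C20A, with the base of miR-192-5p first, that of miR-215-5p last and positions counted from the 5′ end. The 3p arms of the miR-194 loci differ by G8A, U19C, C20U and G22C, with the base of miR-194-2-3p first. The 5p arm of miR-194 is identical at both loci and cannot be placed.

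The gut miRNAs lie in tandem pairs. Mir194-2 (chr19:6264643-6264728, plus strand) and Mir192 (chr19:6264844-6264932, plus strand) are 115 bases apart, and GENCODE M21 annotates no host gene there. Mir194-1 (chr1:185313319-185313385, plus strand) and Mir215 (chr1:185313581-185313692, plus strand) are 195 bases apart. They lie in an intron and an exon of the antisense RNA 2010103J01Rik, opposite an intron of Iars2. Mature miR-9 is made from Mir9-1 (chr3:88215598-88215686) in an intron of Gm3764, Mir9-2 (chr13:83738814-83738885) in an exon of C130071C03Rik and Mir9-3 (chr7:79505264-79505353) in an intron of Mir9-3hg, all on the plus strand. The RefSeq genes of miR-124 are Mir124a-1 (chr14:64590657-64590741), Mir124a-2 (chr3:17795662-17795770) and Mir124a-3 (chr2:180894040-180894107).

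Known miRNA tags numbered 4381927 to 4825429 in ET1 libraries (18127265 to 19493731 tags in all) and 6240334 to 8651018 in untreated libraries (18972157 to 20895432 in all). Fragments of rRNA made up 7.12% to 11.02% of ET1 tags and 3.22% to 5.63% of untreated tags. A count of 0 allows up to 3 tags, or 0.622 to 0.685 CPM before TMM scaling in ET1 libraries and 0.347 to 0.481 CPM in untreated libraries, which covers counting error only. The labelled cell type was checked against miR-143-3p and miR-145a-5p, which mark smooth muscle; over all libraries they stood between 10459 and 25175 CPM and between 2105 and 3129 CPM. CPM are tags scaled to the known miRNA tags of a library, here and below after TMM scaling, which corrects for makeup, unless stated; miRNAs are all about as long, so no length correction was made. Smooth muscle marker miRNAs (miR-143-3p, miR-145a-5p, miR-133a-3p and miR-1a-3p) summed to 13056 to 15599 CPM in ET1 libraries and 20620 to 27952 CPM in untreated libraries, and both arms of miR-126a, of endothelial cells, to 114 to 163 CPM in ET1 and 1107 to 1884 CPM in untreated libraries; no marker of these lists was at 0 in a library. Within the smooth muscle sum miR-143-3p was the largest part, and miR-145a-5p alone overlapped between groups. Among all tested miRNAs 23.5% were free of overlap, and no smooth muscle marker passed (edgeR adjusted p 0.072 to 0.88). Of the endothelial arms, miR-126a-3p passed (log2 fold change −3.61, edgeR adjusted p = 0.00019) and miR-126a-5p did not (−2.01, edgeR adjusted p = 0.079). Mesenchymal marker miRNAs (miR-199a-3p, miR-199a-5p, miR-214-3p, miR-21a-5p and miR-22-3p) summed to more, 41464 to 49768 CPM in ET1 and 45937 to 64723 CPM in untreated libraries. Within this sum, miR-199a-5p and miR-214-3p were higher and miR-22-3p lower in every ET1 library than in any untreated one. miR-199a-3p and miR-21a-5p overlapped between groups, and no mesenchymal marker passed (edgeR adjusted p 0.11 to 0.88). The part of these markers in the results below was not tested, and in bulk RNA fewer cells of a type and less RNA per cell cannot be told apart. One library stood apart for the miRNAs described here: ET1 library 1 was the lowest of the 6 libraries for 3 of the 6 tested members (miR-122-5p, miR-192-5p and miR-194-5p), against 16.7% of all tested miRNAs. Results that rest on it are given with and without it.

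The 13 rows together were a trace of the miRNA pool. They held 366, 2251 and 3878 tags in ET1 libraries 1 to 3, which is 79.1, 513.7 and 803.7 CPM before TMM scaling. In untreated libraries 1 to 3 they held 1433, 2055 and 1762 tags, or 176.6, 237.5 and 282.4 CPM before TMM scaling. ET1 libraries 2 and 3 thus lay above all untreated libraries and ET1 library 1 below all of them. The mean was 465 ± 365 CPM in the ET1 group and 232 ± 53.1 CPM in the untreated group (SD, n = 3 each), and 658.7 CPM in ET1 libraries without library 1. The highest ET1 library stood 10.2-fold above the lowest, and the highest untreated library 1.598-fold above the lowest. miR-122-5p alone supplied 31.4%, 66.5% and 65.4% of these tags in the ET1 libraries (Wilson 95% intervals 26.9 to 36.3, 64.5 to 68.4 and 63.9 to 66.9) and 41.1%, 53.4% and 70.1% in the untreated libraries (38.6 to 43.7, 51.2 to 55.5 and 67.9 to 72.2). Intervals cover counting error only, since tags may be PCR copies and whether molecular identifiers were used is not known here.

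Of the 13 rows, 11 had at least 1 tag and 6 passed the expression filter and were tested with edgeR's quasi-likelihood test. None of the 6 passed at an adjusted p under 0.05, in edgeR or in DESeq2, and 1 (miR-124-3p) had an unadjusted p under 0.05. Of all 616 known miRNAs tested, 1.79% passed in edgeR, 1.3% higher and 0.487% lower in ET1. Of the 6 log2 fold changes, 4 were above 0 and 2 below, with a median of 0.63 beside 0.0058 for all tested miRNAs. In none of the 6 were the groups free of overlap in CPM, which 23.5% of all tested miRNAs were.

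**Figure D1:**
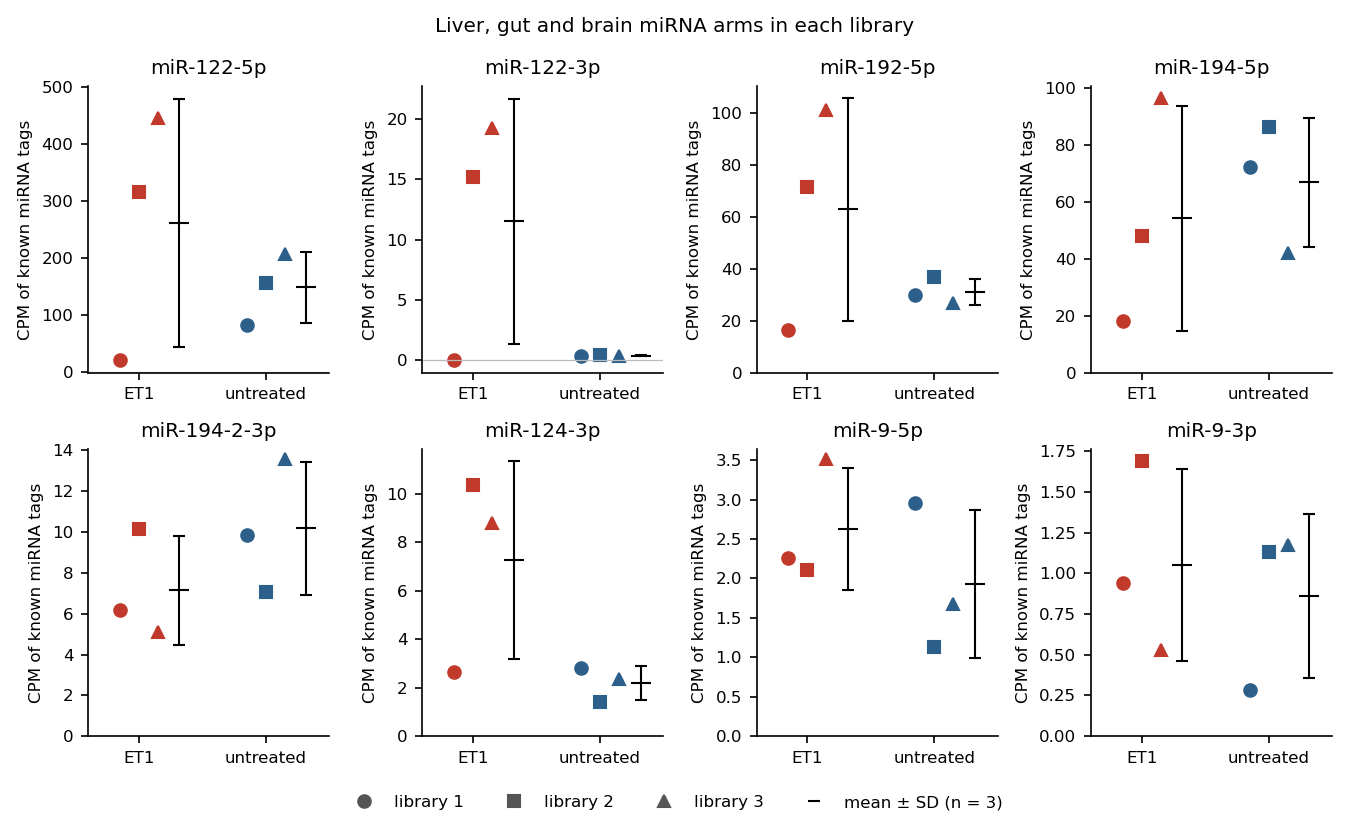
CPM of known miRNA tags (vertical axes, each from 0) of 8 arms in the 3 ET1 and 3 untreated libraries; symbols mark the library number and black bars the mean ± SD. ET1 library 1 is the lowest of the ET1 libraries for both arms of miR-122, miR-192-5p, miR-194-5p and miR-124-3p, and the groups overlap in every panel.

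mmu-miR-122-5p, the guide arm of the hepatocyte miRNA, was the most abundant member and ranked 132 among known miRNAs by mean level. It had 115, 1496 and 2536 tags in ET1 libraries 1 to 3 and 589, 1097 and 1235 tags in untreated libraries 1 to 3. Scaled, this was 21.6, 316 and 445 CPM in ET1 libraries, against 83.1, 155 and 207 CPM in untreated libraries. ET1 libraries 2 and 3 were above every untreated library and ET1 library 1 was below all of them. The highest ET1 library stood 20.6-fold above the lowest, and the highest untreated library 2.49-fold above the lowest. The means were 261.0 ± 217.1 CPM in the ET1 and 149 ± 62.4 CPM in the untreated libraries (SD, n = 3 each), a log2 fold change of 0.81 with a standard error of 1.03 (edgeR adjusted p = 0.73). Without ET1 library 1 the log2 fold change was 1.35 (edgeR adjusted p = 0.11), and without ET1 library 3 it was 0.22.

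mmu-miR-122-3p, the passenger arm, had 0, 72 and 110 tags in ET1 libraries 1 to 3 and 2, 3 and 2 tags in untreated libraries 1 to 3. ET1 libraries 2 and 3 were far above the untreated libraries, whose counts lie at or under the limit that a count of 0 allows, and ET1 library 1 held none. It did not pass the expression filter with all 6 libraries. Of the 5 alternatives that tested it, 4 did not call it (edgeR adjusted p 0.28 to 0.51, without a filter or without any 1 of the untreated libraries). The fit without ET1 library 1, in which 4.43% of 677 miRNAs passed, did call it (edgeR adjusted p = 2.8e-05). There it entered through ET1 libraries 2 and 3 alone, with the ET1 library at 0 left out, so nothing is read from that call.

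The proportion of the arms of miR-122 does not depend on how libraries are scaled. Of the tags of both arms, the 3p arm held 0 of 115 in ET1 library 1 (which allows up to 2.61%), 4.59% in ET1 library 2 (Wilson 95% interval 3.66 to 5.74) and 4.16% in ET1 library 3 (3.46 to 4.99). It held 0.338% (0.0929 to 1.23), 0.273% (0.0928 to 0.799) and 0.162% (0.0444 to 0.588) in untreated libraries 1 to 3. The 3p share was thus higher in ET1 libraries 2 and 3 than in any untreated library beyond counting error, and the limit for ET1 library 1 lies below the intervals of the other ET1 libraries and does not set it apart from the untreated ones. With 1 tag added to each arm, the log2 ratio of 3p to 5p tags averaged −5.24 ± 1.40 in ET1 and −8.14 ± 0.53 in untreated libraries (SD, n = 3 each). The difference of 2.89 had an exact permutation p of 0.1, two-sided, the smallest that 3 libraries against 3 allow, and 0.25 adjusted over the 5 ratios compared. The groups did not overlap, but for ET1 library 1 this rests on the added tag. Among 261 pairs of arms with at least 10 tags each, the groups did not overlap in 18.4%, and the difference for miR-122 was the third highest, beside a median of 0.049. This ratio was chosen after its values were seen.

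mmu-miR-192-5p, the gut and kidney miRNA, had 87, 339 and 576 tags in ET1 libraries 1 to 3 and 212, 260 and 161 tags in untreated libraries 1 to 3. This was 16.4, 71.7 and 101 CPM in ET1 libraries, against 29.9, 36.8 and 27.0 CPM in untreated libraries. The order of the ET1 libraries was that of miR-122-5p, while the untreated libraries lay within 1.36-fold of each other. The means were 63.0 ± 43.0 CPM with ET1 and 31.3 ± 5.04 CPM untreated (SD, n = 3 each), a log2 fold change of 1.01 (SE 0.58; edgeR adjusted p = 0.37). It was 1.44 without ET1 library 1 and 0.51 without ET1 library 3. miR-192-3p, its passenger arm, was nearly absent, with 0, 2 and 0 tags in ET1 libraries 1 to 3 and 2, 9 and 1 tags in untreated libraries 1 to 3. With 1 tag added, the log2 ratio of 3p to 5p tags of miR-192 averaged −7.49 for ET1 and −5.73 for untreated libraries, a difference of −1.75 with no overlap between groups. In ET1 libraries 1 and 3 this rests on the added tag, and the ratio was singled out after its values were seen. Among the 261 pairs of arms the groups did not overlap in 18.4%, and the difference for miR-192 ranked 26 by absolute size.

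mmu-miR-194-5p, which is made beside both miR-192 and miR-215, had 97, 227 and 551 tags in ET1 libraries 1 to 3 and 514, 609 and 251 tags in untreated libraries 1 to 3. This was 18.2, 48.0 and 96.7 CPM in ET1 libraries, against 72.5, 86.3 and 42.1 CPM in untreated libraries. ET1 library 3 was the highest and ET1 library 1 the lowest of all. The means were 54.3 ± 39.6 CPM with ET1 and 67.0 ± 22.6 CPM untreated (SD, n = 3 each), a log2 fold change of −0.30 (SE 0.57; edgeR adjusted p = 0.83). The sign changed to 0.076 without ET1 library 1 and to 0.10 when libraries were scaled to known miRNA tags alone, a scaling that moved the median of all tested miRNAs to 0.37.

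The 3p arms of the miR-194 loci have rows of their own. miR-194-2-3p, from the pair on chromosome 19, had 33, 48 and 29 tags in ET1 libraries 1 to 3 and 70, 50 and 81 tags in untreated libraries 1 to 3. miR-194-1-3p, from the pair on chromosome 1, had no tag in any library. mmu-miR-215-5p, the other miRNA of the chromosome 1 pair, had 2, 0 and 3 tags in ET1 libraries and 1, 0 and 0 tags in untreated libraries, and miR-215-3p had 1, 0 and 0 tags in ET1 libraries and 0, 1 and 0 tags in untreated libraries. The arms that belong to 1 locus alone were thus counted almost wholly at the chromosome 19 pair. How the authors assigned a tag that fits both miR-192-5p and miR-215-5p with a mismatch is not given in the sources used here. miR-194-2-3p averaged 7.15 ± 2.66 CPM with ET1 and 10.2 ± 3.27 CPM untreated (SD, n = 3 each), a log2 fold change of −0.51 (SE 0.47; edgeR adjusted p = 0.63).

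The balance between miR-194-5p and miR-192-5p differed between the groups without overlap. Per tag of miR-192-5p, miR-194-5p made a log2 ratio of 0.16, −0.58 and −0.064 in ET1 libraries 1 to 3 and of 1.27, 1.22 and 0.64 in untreated libraries 1 to 3. All ET1 libraries, library 1 included, were below all untreated libraries. Such a separation was common: of 261 ratios of 3p to 5p arms, 18.4% were also free of overlap between groups. Of the tags of the pair, miR-194-5p held 52.7% (Wilson 95% interval 45.5 to 59.8), 40.1% (36.1 to 44.2) and 48.9% (46.0 to 51.8) in ET1 libraries, against 70.8% (67.4 to 74.0), 70.1% (67.0 to 73.0) and 60.9% (56.1 to 65.5) in untreated libraries. The mean log2 ratio was −0.16 ± 0.38 in ET1 and 1.05 ± 0.35 in untreated libraries (SD, n = 3 each). The difference of −1.21 had an exact permutation p of 0.1, two-sided, the smallest possible, and 0.25 adjusted over the 5 ratios. It ran from −1.41 to −0.9996 with 1 library left out. In the same libraries the share of rRNA fragments was higher in ET1, and its part in this difference was not tested.

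**Figure D2:**
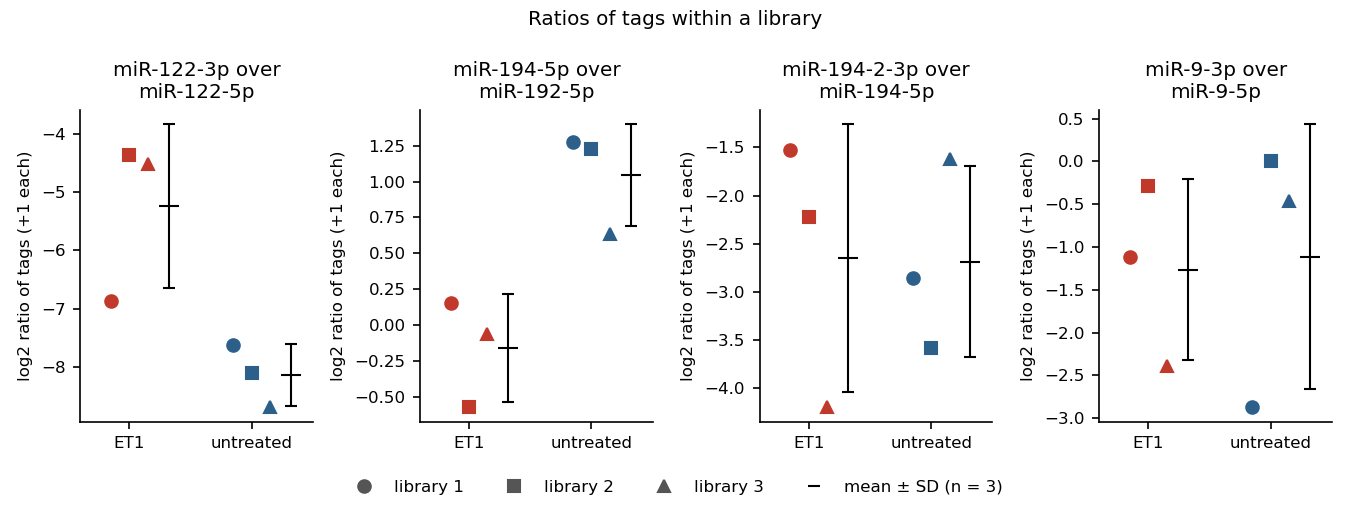
Log2 ratios of tags of miRNA pairs within each library (vertical axes), with 1 tag added to each count; symbols mark the library number and black bars the mean ± SD of 3 libraries. The groups are separate for miR-122-3p over miR-122-5p and for miR-194-5p over miR-192-5p, and overlap for miR-194-2-3p over miR-194-5p and miR-9-3p over miR-9-5p.

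The other 3 of the 5 ratios compared overlapped between groups. The ratio of the arms of miR-192 is not among the 5, so the adjusted p-values do not cover it. Like the ratio of the arms of miR-122, that of miR-194-2-3p to miR-194-5p was not planned. miR-194-2-3p over miR-194-5p averaged −2.65 ± 1.39 in ET1 and −2.69 ± 0.99 in untreated libraries on the log2 scale (SD, n = 3 each; two-sided exact permutation p = 0.9). miR-215-5p over miR-192-5p averaged −6.82 ± 1.79 in ET1 and −7.37 ± 0.65 untreated (SD, n = 3 each; two-sided exact permutation p = 0.8), from 6 miR-215-5p tags in all.

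mmu-miR-124-3p, the guide arm of the neuronal miRNA, had 14, 49 and 50 tags in ET1 libraries 1 to 3 and 20, 10 and 14 tags in untreated libraries 1 to 3. This was 2.63, 10.4 and 8.78 CPM in ET1 libraries, against 2.82, 1.42 and 2.35 CPM in untreated libraries. ET1 libraries 2 and 3 were above every untreated library, and ET1 library 1 lay among the untreated libraries. The means were 7.26 ± 4.08 CPM with ET1 and 2.20 ± 0.71 CPM untreated (SD, n = 3 each), a log2 fold change of 1.71 (SE 0.59; edgeR adjusted p = 0.11, unadjusted p = 0.011). An unadjusted p under 0.05 was found for 18.3% of all tested miRNAs. Without ET1 library 1 miR-124-3p passed, at 2.10 (SE 0.55, edgeR adjusted p = 0.037). That fit leaves out its lowest ET1 value, and 4.43% of 677 miRNAs passed in it, so nothing is read from this call. Under the other 11 alternatives that tested miR-124-3p, the adjusted p in edgeR or DESeq2 was not under 0.05 (0.059 to 0.61). miR-124-5p, the passenger arm, had no tag in any library.

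mmu-miR-9-5p and mmu-miR-9-3p, which both act in neural progenitors, were close to the detection limit. miR-9-5p had 12, 10 and 20 tags in ET1 libraries 1 to 3 and 21, 8 and 10 tags in untreated libraries 1 to 3, and its groups overlapped. The means were 2.63 ± 0.77 CPM with ET1 and 1.92 ± 0.94 CPM untreated (SD, n = 3 each), a log2 fold change of 0.45 (SE 0.62; edgeR adjusted p = 0.74), or −0.031 with all rows fitted together. miR-9-3p had 5, 8 and 3 tags in ET1 libraries and 2, 8 and 7 tags in untreated libraries, with 1.05 ± 0.59 CPM with ET1 and 0.863 ± 0.504 CPM untreated (SD, n = 3 each), and did not pass the filter. Its share of the tags of both arms was 29.4%, 44.4% and 13.0% in ET1 libraries, against 8.70%, 50.0% and 41.2% in untreated libraries. The intervals are wide: the share in untreated library 2 had a Wilson 95% interval of 28.0 to 72.0 and that in untreated library 1 one of 2.42 to 26.8. The log2 ratio of 3p to 5p tags averaged −1.27 ± 1.06 in ET1 and −1.11 ± 1.54 untreated (SD, n = 3 each; two-sided exact permutation p = 0.9).

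**Figure D3:**
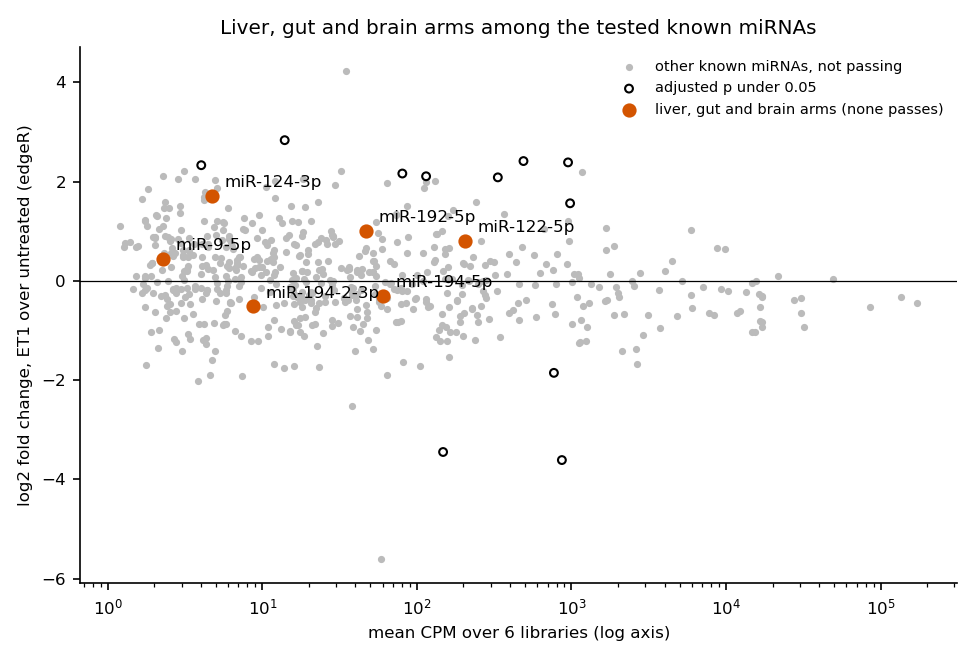
Log2 fold change of ET1 over untreated (vertical axis, edgeR) against mean CPM over 6 libraries (horizontal log axis) for the 616 tested known miRNAs; open circles passed at an adjusted p under 0.05 and orange points are the 6 tested liver, gut and brain arms. The 6 arms lie within the cloud of miRNAs that did not pass, from −0.51 for miR-194-2-3p to 1.71 for miR-124-3p.

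Across members the mean level over the 6 libraries ranked miR-122-5p first, miR-194-5p and miR-192-5p next, and then miR-194-2-3p, miR-122-3p, miR-124-3p and miR-9-5p. Along this order miR-122-5p stood above miR-194-5p, and miR-192-5p above miR-194-2-3p, in each of the 6 libraries. The other neighbours named here changed places between libraries.

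Other miRNAs restricted to brain or other tissues gave a comparison. Of 24 rows for miR-7, miR-128, miR-129, miR-137, miR-138, miR-153, miR-218 and miR-219, other miRNAs with high levels in brain, 13 were tested and none passed, with 4 above 0, 9 below and a median log2 fold change of −0.31. Their summed level was 488, 456 and 398 CPM in ET1 libraries 1 to 3, against 619, 1035 and 647 CPM in untreated libraries 1 to 3. The summed level was thus lower in every ET1 library than in any untreated one. Within it miR-7b-5p, singled out after its values were seen, had 81.0, 0 and 0 CPM in ET1 libraries 1 to 3, against 97.8, 132 and 70.8 CPM in untreated libraries 1 to 3. Without that row the sum was 407, 456 and 398 CPM in ET1 libraries and 521, 903 and 576 CPM in untreated libraries, still lower in every ET1 library. Without miR-129-5p, however, ET1 library 1 stood above untreated library 3, so the groups overlapped. Among single tested miRNAs, 23.5% were free of overlap between groups. The most abundant row, miR-129-5p, averaged 143.9 ± 23.4 CPM with ET1 and 329 ± 105 CPM untreated (SD, n = 3 each; log2 fold change −1.19, edgeR adjusted p = 0.11). Of 22 rows for miR-184, miR-203, miR-204, miR-205, miR-208, miR-211, miR-216, miR-217, miR-375 and miR-499, which are restricted to eye, skin, heart or pancreas among others, 6 were tested and none passed, with 3 above 0, 3 below and a median of −0.42. The most abundant row, miR-204-5p of retina and pancreas, averaged 215.8 ± 50.4 CPM with ET1 and 473 ± 183 CPM untreated (SD, n = 3 each; log2 fold change −1.13, edgeR adjusted p = 0.12). Their summed level was 350, 531 and 393 CPM in ET1 libraries 1 to 3 and 489, 969 and 544 CPM in untreated libraries 1 to 3.

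Blood and serum miRNAs were listed because serum carries them. Of 22 rows for miR-16, miR-25, miR-92a, miR-142a, miR-144, miR-150, miR-223, miR-423, miR-451a and miR-486, 13 were tested, 1 rose and 1 fell, with a median log2 fold change of −0.21. Of all 616 tested miRNAs, 1.3% passed as higher and 0.487% as lower in ET1, and whether the list departs from these shares was not tested. The row that rose holds miR-486a-5p together with miR-486b-5p, of red cell precursors and muscle (log2 fold change 2.41, edgeR adjusted p = 0.024). The one that fell is miR-150-5p, of lymphocytes (−3.45, edgeR adjusted p = 0.00036). The most abundant, miR-92a-3p of the miR-17-92 cluster, averaged 12110 ± 3912 CPM with ET1 and 21165 ± 6093 CPM untreated (SD, n = 3 each; log2 fold change −0.81, edgeR adjusted p = 0.22). A narrower set of blood markers (miR-150-5p, miR-223-3p, miR-451a and both arms of miR-142a) summed to 78.7 to 338 CPM in ET1 libraries and 325 to 954 CPM in untreated libraries, and both arms of miR-142a were at 0 in untreated library 1. Within it, miR-451a, the red cell miRNA, had 38.1, 301 and 212 CPM in ET1 libraries 1 to 3, against 48.9, 88.4 and 673 CPM in untreated libraries 1 to 3. Like miR-122-5p it was lowest in library 1 of each group, but its highest ET1 library was library 2, and that of miR-122-5p library 3. Sertoli cell miRNAs (both arms of miR-202) summed to 621, 1906 and 1277 CPM in ET1 libraries 1 to 3 and 1390, 1330 and 918 CPM in untreated libraries 1 to 3, also lowest in ET1 library 1. The part of any of these in the values of miR-122, miR-192 and miR-194 was not tested.

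The authors' deposited table, which pools the counts of each group, gave 11 of the 13 rows a q-value, and 7 of these were under 0.05, 6 higher and 1 lower in ET1. Of the 1147 known miRNAs with a q-value in the authors' deposited table, 67.5% were under 0.05, 48.0% higher and 19.5% lower, so the members' share was near that of all. The authors' deposited log2 ratio was 1.20 for miR-122-5p, 1.36 for miR-192-5p, 5.397 for miR-122-3p and 2.06 for miR-124-3p, and their q-values were 7.18e-272, 8.69e-81, 1.34e-57 and 9.14e-18. These ratios do not follow from the deposited mean RPM: miR-194-5p had 22.9 RPM in untreated and 15.1 RPM in ET1 libraries but a log2 ratio of 0.046. They are thus not on one scale with the TMM-scaled fold changes above. The authors' deposited table holds no term for the spread between libraries, over which none of these passed with all 6 libraries.

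**Figure D4:**
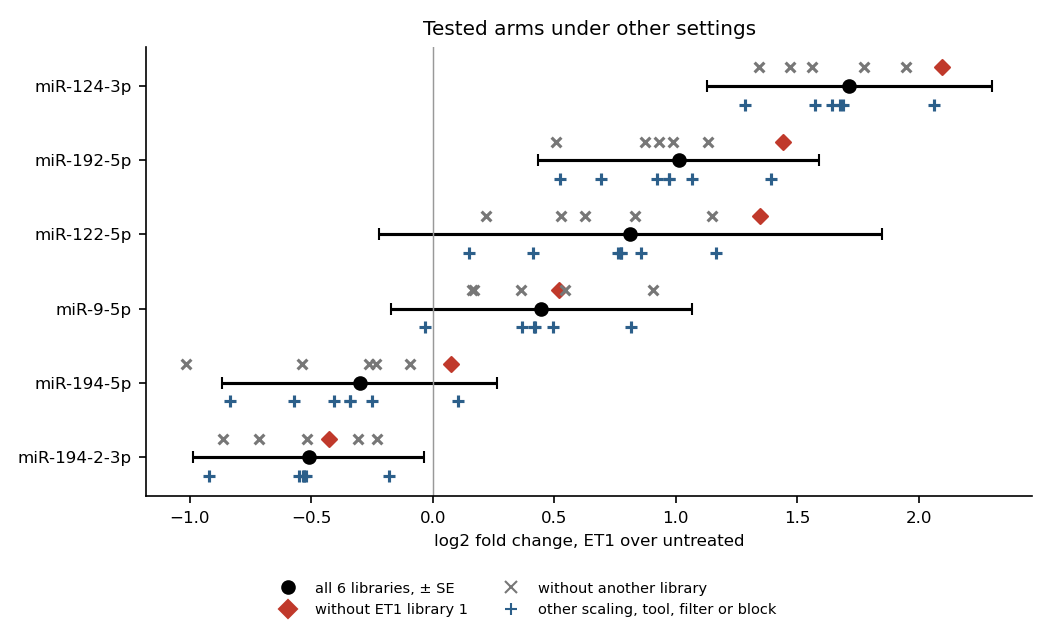
Log2 fold change of ET1 over untreated (horizontal axis) of the 6 tested arms with all libraries (black, ± SE), without ET1 library 1 (red diamonds), without another library (grey crosses) and under other scalings, tools, filters or the block (blue plus signs). miR-124-3p, miR-192-5p and miR-122-5p stay above 0 in every fit shown and miR-194-2-3p below 0, while miR-194-5p and miR-9-5p cross it.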

How the data were processed

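Per the labels' protocols, TRNzol was used to extract total RNA, and small RNA libraries were made by standard BGI protocols. Bowtie2 and mm10 are named per the submitters' processing notes; mismatches and the treatment of tags with several matches are not given in the sources used here. The authors deposited raw tag counts of 61628 rows in 6 libraries. Each library also has a column headed TPM, which from the values is an RPM over all rows (0 written as 0.001), and was not tested. The authors' deposited comparison table holds pooled counts, mean RPM, log2 ratios, p-values and q-values; it was only quoted.

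Known miRNA rows (1573) were fitted in edgeR 4.0.16 (R 4.3.3): TMM scaling, filterByExpr by group at its defaults, robust quasi-likelihood fitting and Benjamini-Hochberg adjustment over 616 miRNAs, threshold 0.05. The fitting code was run on simulated data with a fixed spread and large changes, which does not measure its error at the spread of these libraries. The 4 rows of totals (44.3% to 61.4% of tags) entered no fit. DESeq2 1.42.0 was an alternative. Ratios used 1 added tag and exact permutation (SciPy 1.17.1). Libraries of 1 group differed beyond counting noise (chi-square over degrees of freedom from 336 to 1212). Every row of the 6 stems is named; from comparison lists, the most abundant row and those that passed; miR-451a, miR-7b-5p, miR-122b and miR-9b were named after their values were seen. Members and lists were chosen with earlier results of these data known. Alternatives covered scaling, filters, tool, the replicate block, rows fitted and each library left out.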

Additional observations from a re-analysis of the deposited data

Results flagged for a closer look

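A row outside the known miRNAs, the Rfam family of the mir-124 precursor, was higher in every ET1 library than in any untreated library when scaled to known miRNA tags. It had 10, 13 and 29 tags in ET1 libraries 1 to 3 and 12, 1 and 13 tags in untreated libraries 1 to 3, or 2.16, 2.97 and 6.01 CPM before TMM scaling in ET1 libraries, against 1.48, 0.116 and 2.08 CPM in untreated libraries, with a mean of 3.71 CPM for ET1, against 1.23 CPM for untreated cells. After TMM scaling the groups overlapped. With known miRNA tags alone the median tested miRNA itself stood at 0.37 on the log2 scale, against 0.0058 with TMM. Separate groups were also common: after TMM scaling 23.5% of the 616 tested miRNAs showed them. That share was not computed for known miRNA tags alone. The difference in the mir-124 family row was not tested.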

How the results depend on the processing

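No member passed under any alternative that kept all libraries. With 1 library left out 0 to 2 passed, 2 without ET1 library 1. These were miR-124-3p, whose lowest ET1 value that fit leaves out, and miR-122-3p, which entered that fit through its ET1 libraries alone. The count of all miRNAs that passed, 11, was 41 with known miRNA tags alone, 39 in DESeq2, 37 without a filter, 21 with the replicate block, 0 in edgeR with all rows fitted together (116 at an unadjusted p under 0.05) and 2 to 30 when a library was dropped, namely 2 without ET1 library 3, 5 without untreated library 2, 25 without untreated library 3 and 30 without ET1 library 1. The median over tested miRNAs shifted to a log2 value of 0.37 (known miRNA tags alone) and −0.46 (all rows). Signs changed for miR-194-5p (0.10 with known miRNA tags alone, 0.076 without ET1 library 1) and miR-9-5p (−0.031 with all rows), and without 1 library miR-194-5p ran from −1.01 to 0.076; the cause was not tested. With 1 library left out the difference in log2 ratio ran from −0.42 to 1.34 for miR-215-5p over miR-192-5p, −1.04 to 0.41 for miR-9-3p over miR-9-5p, −0.52 to 0.81 for miR-194-2-3p over miR-194-5p and 2.45 to 3.70 for miR-122-3p over miR-122-5p. Before TMM scaling, the summed share of the members in untreated libraries was 99.4 CPM without miR-122 and 87.3 CPM of all tags, and in ET1 libraries 155 and 112. With 1 library left out it ran from 296 to 659 CPM in ET1 and 207 to 260 CPM in untreated libraries, also before TMM scaling. Under the filter of at least 10 CPM only 3 members were tested, and without an added tag miR-215-5p and miR-122-3p gave no ratio. Same-numbered libraries of the groups correlated at 0.29, 0.069 and 0.28 in their deviations from the group means, so that 1 pair fell short of the 0.1 asked of every pair, although all 6 libraries correlated best with their own number, a hint from the data and not the design; with the replicate block miR-122-5p was at 0.15, miR-192-5p at 0.69 and miR-124-3p at 1.57, and none passed. Depth limits miR-9, miR-215, miR-192-3p and the 3p arm of miR-122 in ET1 library 1 and the untreated libraries.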

Other observations

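Rows whose names differ from a member by a letter were counted as well. miR-122b-5p had 0, 12 and 8 tags in ET1 libraries 1 to 3 and 0, 1 and 0 tags in untreated libraries 1 to 3, and so appeared in the ET1 libraries in which miR-122-3p did. miR-9b-3p had 48, 66 and 42 tags in ET1 libraries and 52, 56 and 42 tags in untreated libraries, more than either arm of miR-9 in each library.

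Among 399 tested miRNAs with a mean of at least 10 CPM, the pattern over the 6 libraries most like that of miR-122-5p was that of miR-204-3p, an eye and choroid plexus miRNA (Pearson's r of log2 CPM 0.91), and then let-7b-3p (0.91). That of miR-192-5p was most like miR-503-3p (0.94) and miR-351-3p (0.94), both of an X-linked cluster. miR-194-5p was most like miR-872-5p (0.93) and miR-500-3p (0.83). miR-124-3p was most like miR-6538 (0.99) and miR-877-5p (0.95), miR-9-5p like miR-34b-3p (0.95) and miR-543-5p (0.89), and miR-194-2-3p like miR-744-5p (0.89) and miR-29c-3p (0.82). These are descriptions over 6 libraries that share their scaling, chosen as the highest of 399.

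Family rows of Rfam precursors, counted apart from the named arms, had 1, 21 and 32 tags for mir-122 in ET1 libraries 1 to 3 and 6, 6 and 17 tags in untreated libraries 1 to 3. Those of mir-192 and mir-215 had 12, 57 and 80 tags in ET1 libraries and 52, 54 and 60 tags in untreated libraries. That of mir-194 had 5, 4 and 14 tags in ET1 libraries and 19, 18 and 8 tags in untreated libraries. That of mir-9 had 2, 7 and 5 tags in ET1 libraries and 6, 2 and 6 tags in untreated libraries.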
